A study of Mus musculus with 16 samples.

Results

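Alternate-day fasting without drug was compared with free feeding in 8 of the 16 subcutaneous tumours of the series, 4 from ADF mice and 4 from Vehicle mice, chosen by their treatment label. The tumours grew from B6MyC-CaP cells, a prostate cancer line derived from the Hi-MYC mouse, backcrossed from FVB to C57BL/6, in which a probasin promoter that responds to androgen drives a human MYC transgene in prostate epithelium. The hosts were male C57BL/6 mice, 6 weeks old at implantation, that were randomised once tumours were established. ADF mice went 24 h without food and then had 24 h of free access to chow, in repeated cycles. Vehicle mice had chow at all times. The treatment label of the ADF tumours names no vehicle, so dosing as well as diet may differ between the groups. The other 8 tumours came from ADF+ENZ mice, which were fasted and received 20 mg/kg of the antiandrogen enzalutamide by gavage each day, and from ENZ mice, which received the drug with free feeding. They entered the fit and served for 1 further comparison. All tumours share 1 cell line. The labels state neither whether ADF mice were fasting or feeding at collection nor that each came from a mouse of its own, so every p-value below measures the spread between these tumours, which may be technical.

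The libraries held 12289755 to 16140246 counts assigned to genes in ADF and 15722655 to 18313259 in Vehicle, and their make-up differed. Reads outside annotated features were 30.3 to 36.7% of all reads in ADF and 23.4 to 27.9% in Vehicle (means 32.9 ± 2.73 and 25.9 ± 2.25, SD, n = 4 each). Multiply aligned reads made up 4.70 ± 0.414% in ADF and 7.44 ± 0.294% in Vehicle (SD, n = 4 each). Ambiguous reads, which lie in several genes at once, were 2.71 to 3.02% in ADF and 3.76 to 4.44% in Vehicle, and reads that did not align 9.64 to 12.2% in ADF and 7.47 to 9.098% in Vehicle. The ranges of these 4 shares did not overlap (exact two-sided permutation test over 70 assignments, p = 0.0286 for each, also adjusted over the 4, the smallest that 4 against 4 allows). Reads outside features were 21.2 to 26.1% in ADF+ENZ and 24.5 to 27.9% in ENZ, so the ADF libraries stood above these groups too. Fasting without drug and this make-up therefore cannot be told apart in this design. The value with the share of reads outside features as a covariate is given beside some of the lists and genes. In that fit 6 genes passed, each described below, so no other gene named here passed with the covariate. As a check of the epithelial label, Krt8 was at 427 to 545 CPM in ADF and 502 to 649.9 CPM in Vehicle. CPM is counts per 1000000 counts of the genes tested, with each library's total scaled by its TMM normalization factor. That factor was 1.01 to 1.07 in ADF and 0.957 to 1.01 in Vehicle. The epithelial adhesion gene Epcam had 16 counts over the 4 ADF libraries and 30 over the 4 Vehicle libraries.

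A cell takes up glucose through transporters of the Slc2a family, splits it in a chain of enzymes to pyruvate and, when it reduces pyruvate to lactate, exports the lactate through monocarboxylate transporters. The hypoxia-inducible factors (HIF) switch on most genes of that chain when oxygen is short, together with genes for blood vessel growth and for collagen modification. Mitochondria burn fatty acids and ketone bodies instead when an animal fasts, and the liver supplies the ketone bodies. Low insulin in a fasted animal also releases FOXO factors, lowers mTOR activity and favours autophagy.

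Tumours of ADF mice had lower levels of most glycolytic enzymes, of many HIF target genes and of the growth factor genes Vegfa and Pgf, while genes of fatty acid oxidation and of ketone use stayed below the threshold with the exception of Cpt1a (higher) and Oxct1 (lower). Of 18946 genes tested, 1707 (9.01%) passed an edgeR adjusted p under 0.05, with 767 (4.05%) higher and 940 (4.96%) lower in ADF than in Vehicle. A change above 2-fold was seen in 406 of them (2.14% of genes tested). Groups lay fully apart in CPM for 3126 genes (16.5%), of which 1620 (8.55%) were lower and 1506 (7.95%) higher in ADF, and for 1498 of the 1707. The tumours of a group were not alike. The count of changed genes was 610 without ADF replicate 4, 713 without Vehicle replicate 3, 777 without Vehicle replicate 2 and 1055 without ADF replicate 3, and 471 genes passed in all 8 fits with 1 tumour left out. With the share of reads outside features as a covariate 6 genes passed and 1938 had an unadjusted p under 0.05. In that fit 1655 of the 1707 kept the sign of their change, the median log2 change of the genes that fell was -0.34 in place of -0.45, that of the genes that rose was 0.43 in place of 0.83, and the median SE was 0.213 in place of 0.135. The log2 changes below are ADF over Vehicle, so a negative value means a lower level in ADF. Counts of list members below stand beside the 4.05% of all genes that rose and the 4.96% that fell.

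Promoters of the genes that fell are shown here because the groups that moved together have known binding letters of their factors: ACGTG, the core that HIF binds, CCAAT followed after 9 bases of any kind by CCACG, the endoplasmic reticulum stress element, and CACGTGAC, part of the element that TFEB binds in lysosomal genes. The search covered both strands of the 250 bases before each gene's start in RefSeq promoter sequences of GRCm38.p6, which were found for 11628 of 18798 gene symbols tested. ACGTG lies within CACGTGAC, so a match of the longer motif is also one of the shorter. ACGTG was found in 23 of 42 promoters (54.8%) of the glucose, glycolysis and HIF target lists, in 14 of 25 (56%) of those whose gene fell, and in 2806 of 11628 promoters (24.1%) of all genes tested. Capitals mark 1 match a gene on the strand of the gene, so CACGT is the core read on the other strand. In Ldha and Bnip3 the base after the capitals is G, so ACGTG also lies there on the strand of the gene. The searched windows of Pgk1 and Ldha hold 2 and 3 matches, of which the others are not in capitals or not in the stretch shown.
Slc2a1, chr4:119108684-119108738, plus strand: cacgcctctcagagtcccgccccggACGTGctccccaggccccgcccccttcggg
Ldha, chr7:46845634-46845688, plus strand: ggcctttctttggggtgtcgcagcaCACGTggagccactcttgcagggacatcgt
Pgk1, chrX:106186925-106186979, plus strand: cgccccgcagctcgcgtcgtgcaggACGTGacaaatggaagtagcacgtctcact
Pgam1, chr19:41911732-41911786, plus strand: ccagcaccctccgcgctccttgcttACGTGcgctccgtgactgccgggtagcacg
Bnip3, chr7:138909585-138909639, minus strand: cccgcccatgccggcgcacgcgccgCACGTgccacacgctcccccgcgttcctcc
P4ha1, chr10:59323255-59323295, plus strand: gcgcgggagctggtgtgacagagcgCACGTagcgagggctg
The next 4 carry the endoplasmic reticulum stress element, which 9 of 24 promoters (37.5%) of that list held and 4 of 12 (33.3%) of those whose gene fell, against 19 of 11628 (0.163%) of all genes tested. Calr holds it in the reverse orientation.
Calr, chr8:84847063-84847105, minus strand: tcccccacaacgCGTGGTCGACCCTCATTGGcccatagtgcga
Canx, chr11:50325788-50325830, minus strand: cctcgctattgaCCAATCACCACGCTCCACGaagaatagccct
Hsp90b1, chr10:86705626-86705668, minus strand: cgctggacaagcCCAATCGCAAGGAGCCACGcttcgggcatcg
Pdia6, chr12:17266479-17266521, plus strand: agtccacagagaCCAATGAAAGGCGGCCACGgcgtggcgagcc
The last pair carries CACGTGAC, found in 7 of 33 promoters (21.2%) of the lysosomal lists and in 418 of 11628 (3.59%) of all genes tested.
Gla, chrX:134601174-134601221, minus strand: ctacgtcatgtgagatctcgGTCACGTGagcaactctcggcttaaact
Lamp1, chr8:13159113-13159160, plus strand: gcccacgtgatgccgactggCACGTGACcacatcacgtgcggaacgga
The lists name pathways that these factors are known to regulate, so a share above that of all genes could be foreseen. Of the genes that fell, 56% held ACGTG and 33.3% the stress element, against 54.8% and 37.5% of the whole lists. These matches describe letters in a window, and binding of any factor was not measured.

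Glucose entry was the first step that was lower. Slc2a1 encodes the main glucose transporter of proliferating cells. It had 51.8, 73.6, 76.8 and 43.01 CPM in the ADF tumours, against 172, 159, 219.9 and 127 CPM in the Vehicle tumours. Every ADF tumour lay below every Vehicle tumour, and ADF replicate 4 was the lowest of all (log2 -1.46, SE 0.2404, edgeR adjusted p = 0.00315). With the covariate the log2 change was -0.97 and did not pass. Slc2a3, the neuronal-type transporter, stayed low in both groups, at 1.92 CPM per kb of exon in ADF and 2.01 in Vehicle, where Slc2a1 was at 17.5 in ADF and 48.3 in Vehicle, and its change was -0.06 (edgeR adjusted p = 0.874). Of the 6 tested transporters of glucose and lactate together, 3 fell (1 without ADF replicate 4) and 0 rose. The lactate carriers Slc16a3 and Slc16a1, described below, fell too.

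The trapping and priming of glucose were lower in the same tumours. Hk1 had 97.8, 98.7, 119 and 109 CPM in ADF, against 163, 174, 196 and 137 CPM in Vehicle, and Hk2 had 55.6, 74.6, 79.6 and 62.01 CPM in ADF, against 95.6, 120.5, 124 and 102 CPM in Vehicle. Both hexokinases, which phosphorylate glucose on entry, had ranges that did not overlap, and both fell (-0.66, SE 0.0986, edgeR adjusted p = 0.000803, and -0.70, SE 0.118, adjusted p = 0.00191). Gpi1, the isomerase that makes fructose 6-phosphate, had a log2 change of -0.78 (SE 0.133, edgeR adjusted p = 0.00202). Phosphofructokinase, the committed step, is built from the subunits Pfkl, Pfkp and Pfkm. Pfkl had 41.8, 51.999, 62.99 and 51.2 CPM in ADF, against 108, 96.2, 159 and 77.3 CPM in Vehicle, and fell (log2 -1.08, SE 0.187, edgeR adjusted p = 0.00332). Pfkp fell by 1.05 (SE 0.2505, edgeR adjusted p = 0.0206), a call lost without ADF replicates 1 or 4 or Vehicle replicate 3 (log2 -1.23 to -0.88 over the 8 fits). The muscle subunit Pfkm missed the threshold (-0.39, edgeR adjusted p = 0.205), and so did Pfkfb3, the kinase that makes the activator of phosphofructokinase (-0.39, adjusted p = 0.128).

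**Figure D1:**
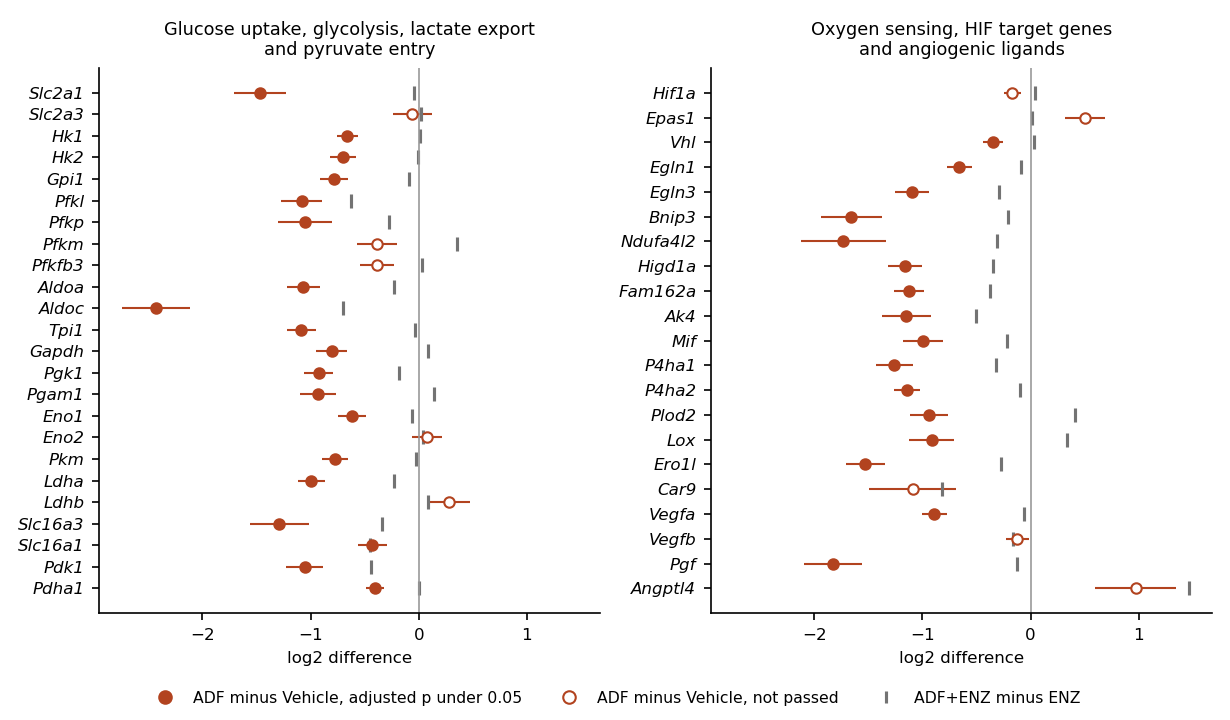
Log2 difference between ADF and Vehicle tumours (x axis; points with SE bars, filled where the edgeR adjusted p was under 0.05) for each gene of glucose uptake, glycolysis, lactate export and pyruvate entry in pathway order (left) and of oxygen sensing, HIF targets and angiogenic ligands (right), with grey ticks for ADF+ENZ minus ENZ. From Slc2a1 at -1.46 to Ldha at -0.99 most filled points lie left of 0, Slc2a3, Eno2 and Ldhb lie near or right of it, and most grey ticks of glycolytic genes lie near 0.

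The enzymes that split the sugar and draw energy from it formed the centre of the change. Aldoa, the ubiquitous aldolase, had 356, 427, 383 and 315 CPM in ADF, against 738, 748, 1027 and 593 CPM in Vehicle. Its highest ADF tumour was well below its lowest Vehicle tumour (log2 -1.07, SE 0.153, edgeR adjusted p = 0.00069). Aldoc, the brain-type aldolase, had the largest fold of the list but a low level, 0.3997, 0.474, 0.945 and 1.22 CPM in ADF and 2.73, 5.26, 4.71 and 3.701 CPM in Vehicle (log2 -2.43, SE 0.315, edgeR adjusted p = 0.000272). Tpi1 interconverts the triose phosphates and had 247, 247, 261 and 217 CPM in ADF, against 459, 538, 671 and 395 CPM in Vehicle. No ADF tumour came near the Vehicle range, and Vehicle replicate 3 was the highest (log2 -1.08, SE 0.135, edgeR adjusted p = 0.000207). Gapdh, which is often used as a loading control, fell by 0.80 (SE 0.145, edgeR adjusted p = 0.00345). It had 96.98, 92.7, 88.8 and 84.4 CPM in ADF, against 149.8, 158, 205 and 121 CPM in Vehicle. Pgk1, which makes the first ATP of the chain, had 266, 310.4, 283 and 234 CPM in ADF, against 505, 561, 644 and 364 CPM in Vehicle (log2 -0.92, SE 0.134, edgeR adjusted p = 0.00069).

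The last steps to pyruvate and lactate were lower too. Pgam1, the phosphoglycerate mutase, had 108, 116, 115 and 95.9 CPM in ADF, against 197, 221, 269 and 144 CPM in Vehicle (log2 -0.94, SE 0.167, edgeR adjusted p = 0.00373). Eno1 had 705, 633, 638 and 577 CPM in ADF, against 1016, 897, 1232 and 776 CPM in Vehicle (log2 -0.62, SE 0.128, edgeR adjusted p = 0.00716). The neuronal enolase Eno2 did not pass (0.08, edgeR adjusted p = 0.76), and per kb of exon it was at 6.17 CPM in ADF and 5.84 in Vehicle, where Eno1 was at 119 in ADF and 182 in Vehicle. Pkm, pyruvate kinase, had 685, 809, 793 and 664 CPM in ADF, against 1288, 1275, 1466 and 1009 CPM in Vehicle (log2 -0.77, SE 0.122, edgeR adjusted p = 0.0011). Ldha, which reduces pyruvate to lactate, had 341, 373, 349.7 and 272 CPM in ADF, against 682, 668, 791 and 513 CPM in Vehicle. The groups lay apart, with ADF replicate 4 lowest and Vehicle replicate 3 highest (log2 -0.99, SE 0.122, edgeR adjusted p = 0.000207). Ldhb, the subunit favoured in tissues that use lactate, did not pass (0.28, edgeR adjusted p = 0.357). Per kb of exon Ldhb was at 4.91 CPM in ADF and 4.01 in Vehicle, and Ldha at 101 in ADF and 200.5 in Vehicle.

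In all, 14 of 19 glycolytic enzymes fell and 0 rose, and with the glucose and lactate transporters 17 of 25 fell, where 4.96% of all genes did. The median log2 change of the enzymes was -0.78, that of all genes 0.01, and the enzymes' median was -0.45 with the covariate, when none passed. The count of enzymes that fell was 13 to 14 in the 8 fits with 1 tumour left out. Summed over the list, the enzymes were at 3421, 3704, 3634 and 3091 CPM in ADF and at 6082, 6120.2, 7637 and 4813 CPM in Vehicle. Vehicle replicate 3 was the highest and Vehicle replicate 4 the lowest of its group, and all ADF tumours lay below it. Reads aligned to several places are not counted for any gene, and Gapdh, Aldoa, Pgk1, Ldha, Pgam1, Tpi1, Pkm and Eno1 have near-identical pseudogene copies, so their counts are uncertain. The share of such reads was lower in ADF, and its part in these values was not tested.

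**Figure D2:**
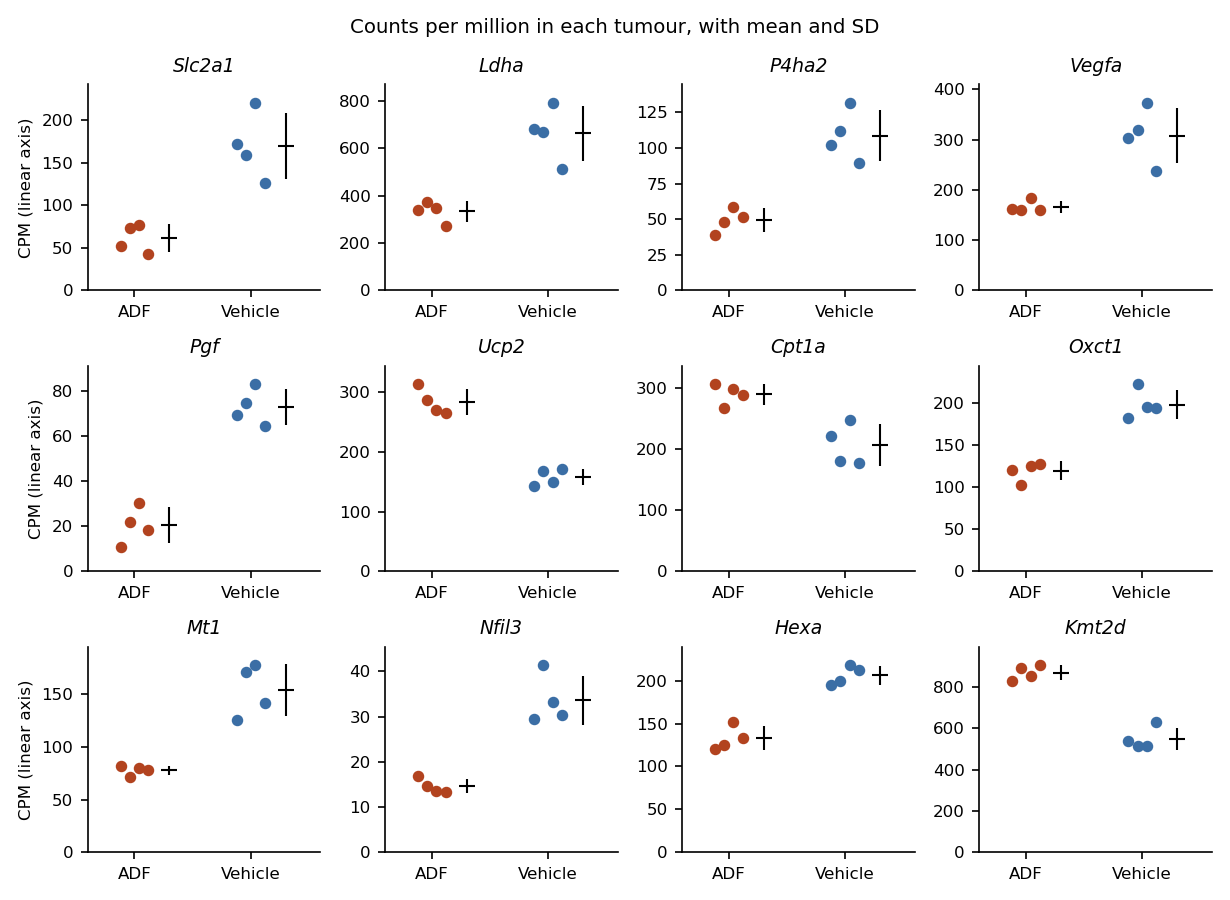
CPM of 12 genes in each of the 8 tumours (y axes linear from 0, each gene on its own scale), ADF left of Vehicle, 1 point a tumour in replicate order beside the group mean and SD. For Slc2a1, Ldha, Vegfa and Pgf every ADF point lies below every Vehicle point, and for Ucp2 every ADF point, 265 to 313 CPM, lies above the Vehicle points, 143 to 171 CPM.

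Lactate export and the side branches moved less evenly. Slc16a3, the lactate exporter that HIF induces, had 33.3, 49.2, 45.8 and 33.9 CPM in ADF, against 111, 90.03, 137 and 58.9 CPM in Vehicle. Its ranges did not overlap (log2 -1.29, SE 0.273, edgeR adjusted p = 0.0137), but the call was lost without ADF replicate 4 (log2 -1.47 to -1.097 over the 8 fits). Slc16a1, which moves lactate and ketone bodies either way, fell by 0.43 at an edgeR adjusted p of 0.0498, a call lost in 7 of the 8 fits with 1 tumour left out, all but the one without Vehicle replicate 2. At the entry of pyruvate into mitochondria 2 of 12 genes fell. Pdk1, the kinase that shuts pyruvate dehydrogenase, had 35.02, 34.8, 39.9 and 33.05 CPM in ADF, against 81.8, 63.3, 101 and 50.4 CPM in Vehicle (log2 -1.05, SE 0.171, edgeR adjusted p = 0.00194), and Pdha1, a subunit of the enzyme it shuts, fell by 0.40 (SE 0.0857, edgeR adjusted p = 0.00849). Pdk4, the isoform that fasting induces in muscle and liver, had 0.2398, 1.24, 0.866 and 0.358 CPM in ADF, against 0.476, 0, 0.327 and 0.608 CPM in Vehicle, and did not pass (0.96, SE 0.709, edgeR adjusted p = 0.41). Of 11 glycogen genes 3 fell (0 without ADF replicates 2 or 4 or Vehicle replicate 3, 1 without ADF replicates 1 or 3 or Vehicle replicate 2), among them Ppp1r3c, which brings phosphatase to glycogen (-1.84, lost in 6 of the 8 fits with 1 tumour left out, all but those without Vehicle replicates 1 or 2), and the synthase Gys1 (-0.48, lost without ADF replicates 2 or 4 or Vehicle replicates 2 or 3). In the pentose phosphate pathway 1 of 7 fell, Taldo1 at -0.34, a call lost without ADF replicate 4 or Vehicle replicate 3.

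Many HIF targets outside glycolysis fell. Of 27 tested, 15 fell and 0 rose, with a median log2 change of -0.88 (-0.73 with the covariate, when none passed), and 13 to 16 fell in the fits with 1 tumour left out. Ero1l, the oxidase that makes disulfide bonds, had 38.1, 43.7, 49.4 and 32.8 CPM in ADF, against 117, 108, 159.5 and 88.9 CPM in Vehicle (log2 -1.53, SE 0.183, edgeR adjusted p = 0.000272). Bnip3, a receptor that sends mitochondria to autophagy, had 14.9, 18.2, 21.3 and 13.2 CPM in ADF, against 52.6, 46.2, 80.96 and 34.1 CPM in Vehicle (log2 -1.66, SE 0.282, edgeR adjusted p = 0.00376). In both genes the ADF tumours clustered low, and Vehicle replicate 3 was well above the rest. P4ha1 and P4ha2, the collagen prolyl hydroxylases, fell by 1.26 and 1.14 (SE 0.169 and 0.121, edgeR adjusted p = 0.000625 and 8.11e-05), and Plod2, the collagen lysyl hydroxylase, by 0.94 (SE 0.174, adjusted p = 0.00478). The mitochondrial genes Higd1a and Fam162a fell by 1.16 and 1.12, the adenylate kinase gene Ak4 by 1.15, the cytokine gene Mif by 0.997 and the stress gene Ndrg1 by 1.01. Ndufa4l2, which replaces a subunit of the respiratory chain in hypoxia, had 5.36, 5.57, 10.9 and 6.31 CPM in ADF, against 22.4, 15.3, 38.8 and 16.9 CPM in Vehicle. It fell (log2 -1.73, SE 0.389, edgeR adjusted p = 0.0168), a call lost without ADF replicate 4 (log2 -2.02 to -1.37). Car9, the carbonic anhydrase used as a hypoxia marker, had 4.08, 2.31, 7.56 and 2.37 CPM in ADF and 8.92, 4.802, 15.7 and 5.08 CPM in Vehicle. Its ranges overlapped and it did not pass (-1.09, SE 0.402, edgeR adjusted p = 0.0977).

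Genes of the factors themselves did not pass the test. Hif1a, the subunit that oxygen controls, had 159, 201, 197 and 162 CPM in ADF, against 202, 210.0, 204 and 191 CPM in Vehicle, with a change of -0.17 (SE 0.0828, edgeR adjusted p = 0.205). Epas1, which encodes the HIF-2 alpha subunit, was at 0.50 (adjusted p = 0.102). Of 10 genes of HIF subunits and oxygen sensors 3 fell and 0 rose. The sensors Egln3 and Egln1, which mark HIF for destruction and are themselves induced by it, were among those that fell. Egln3 had 117, 119, 146 and 85.5 CPM in ADF, against 261, 225, 311 and 200.3 CPM in Vehicle (log2 -1.09, SE 0.158, edgeR adjusted p = 0.000907), and Egln1 fell by 0.66 (SE 0.113, edgeR adjusted p = 0.00205). The ubiquitin ligase gene Vhl fell by 0.35 (adjusted p = 0.0252), a call lost without ADF replicates 2 or 4 or Vehicle replicates 2 or 3. HIF protein and oxygen were not measured.

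Of 14 angiogenic ligand genes 2 fell, both from the VEGF family. Vegfa, the main signal for vessel growth, had 161, 160.1, 184 and 159.6 CPM in ADF, against 303, 319, 372 and 238 CPM in Vehicle. The 4 ADF tumours were close to each other and far below Vehicle (log2 -0.89, SE 0.114, edgeR adjusted p = 0.000263; -0.59 with the covariate). Pgf, placental growth factor, had 11.03, 22.1, 30.5 and 18.5 CPM in ADF, against 69.2, 74.8, 83.1 and 64.5 CPM in Vehicle (log2 -1.83, SE 0.271, edgeR adjusted p = 0.00173; -1.87 with the covariate). Vegfb, the family member that oxygen does not regulate, did not pass (-0.12, SE 0.105, edgeR adjusted p = 0.485). Angptl4, which both PPAR and HIF induce, had 202, 151, 134 and 138 CPM in ADF, against 86.5, 51.4, 125 and 55.9 CPM in Vehicle. All ADF values exceeded all Vehicle values, yet the change did not pass (0.97, SE 0.376, edgeR adjusted p = 0.121). Of the endothelial markers, Flt1, a VEGF receptor, fell by 0.53 (edgeR adjusted p = 0.0333), a call lost without ADF replicates 1, 3 or 4 or Vehicle replicates 2 or 3. The summed endothelial markers were at 416 to 507 CPM in ADF and 408 to 641 CPM in Vehicle.

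Fuels of fasting showed little change as a group. In mitochondrial fatty acid oxidation 1 of 19 genes rose and 0 fell (2 in DESeq2 and 1 in limma-voom), in peroxisomal oxidation none of 12 passed, and of the 5 tested PPAR receptors and coactivators none passed. The gene that rose was Cpt1a, the gate for fatty acids into mitochondria, with 306, 266, 297 and 288 CPM in ADF, against 221, 180.3, 247 and 177 CPM in Vehicle. Its ranges did not overlap (log2 0.49, SE 0.118, edgeR adjusted p = 0.0165; 0.65 with the covariate), and the call was lost without Vehicle replicate 2, when the change was 0.42, the lowest of the 8 fits. Oxct1, the transferase by which tissues use ketone bodies, had 120.5, 103, 125 and 128 CPM in ADF, against 181, 222, 194 and 193 CPM in Vehicle. All ADF tumours lay below all Vehicle tumours (log2 -0.73, SE 0.112, edgeR adjusted p = 0.000937), and it was the gene that changed among the 5 tested ketone genes. In the lipid droplet list the lipase gene Lipe rose by 0.56 (adjusted p = 0.0252, lost without ADF replicates 3 or 4 or Vehicle replicate 2) and the fatty acid carrier gene Fabp5 fell by 1.25 (adjusted p = 0.0328, lost without ADF replicates 1 or 4 or Vehicle replicates 1, 2 or 3). The coat protein gene Plin2 had 211, 195, 201 and 155 CPM in ADF, against 211, 123, 328 and 140.5 CPM in Vehicle, with no change past the threshold (-0.07, adjusted p = 0.89).

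With the share of reads outside features as a covariate, 6 genes passed, and they are described here although they were chosen after their values were seen. Ucp2, an inner-membrane carrier that limits the entry of glucose carbon into oxidation and is induced by fatty acids, had 313, 287, 269.8 and 265 CPM in ADF, against 143, 168, 149.6 and 171 CPM in Vehicle. The groups were far apart and each was tight (log2 0.85, SE 0.0855, edgeR adjusted p = 8.11e-05), and the change was 0.96 with the covariate (SE 0.133, edgeR adjusted p = 0.0146). Suox, the sulfite oxidase of mitochondria, had 37.7, 30.2, 37.5 and 46.02 CPM in ADF, against 80.7, 81.97, 80.6 and 83.8 CPM in Vehicle (log2 -1.11, SE 0.117, edgeR adjusted p = 8.11e-05; -1.31 with the covariate, adjusted p = 0.0146). Adgrg2, an adhesion receptor gene of the male reproductive tract, had 32.4, 30.6, 33.2 and 48.3 CPM in ADF, against 78.99, 121, 107 and 149.9 CPM in Vehicle (log2 -1.66, SE 0.207, edgeR adjusted p = 0.000425; -2.26 with the covariate, adjusted p = 0.0146). Nr1h4, which encodes a receptor for bile acids, had 4.96, 3.08, 4.49 and 5.73 CPM in ADF, against 14.98, 14.98, 15.1 and 15.3 CPM in Vehicle, where the 4 tumours were nearly equal (log2 -1.73, SE 0.249, edgeR adjusted p = 0.000658; -2.38 with the covariate). Il18r1, the receptor gene of interleukin-18, and Smim1, a small membrane protein gene, fell by 1.54 and 0.87 (SE 0.255 and 0.149), and by more with the covariate (-2.39 and -1.34, edgeR adjusted p = 0.0434 for each). None of the 6 calls without the covariate was lost when 1 tumour was left out.

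Nutrient signalling genes gave few calls, where 4.05% of all genes rose and 4.96% fell. Of 21 FOXO factors and targets 1 rose and 2 fell. Ccng2, a cyclin of growth arrest, had 110.2, 87.1, 96.8 and 96.9 CPM in ADF, against 143, 175, 154 and 147 CPM in Vehicle, and fell (log2 -0.66, SE 0.117, edgeR adjusted p = 0.00248). The other target that fell was Pik3ip1, an inhibitor of PI3-kinase (-0.54, adjusted p = 0.0269, lost without ADF replicates 1, 2 or 3 or Vehicle replicates 2 or 3), and the death gene Bcl2l11 rose by 0.38 (lost in 6 of the 8 fits with 1 tumour left out, all but those without ADF replicate 2 or Vehicle replicate 3). Foxo3 did not pass (-0.03, edgeR adjusted p = 0.885), and Txnip, which blocks glucose uptake, was at 0.62 (SE 0.264, adjusted p = 0.154). In the insulin and IGF system 1 of 21 rose and 1 fell. The kinase gene Akt2 had 99.2, 94.6, 104 and 98.997 CPM in ADF, against 124, 123, 135 and 129.6 CPM in Vehicle, with tight groups that did not overlap (log2 -0.36, SE 0.0663, edgeR adjusted p = 0.0031). Irs4, an adaptor of the insulin receptor, had 4.397, 2.67, 2.68 and 2.94 CPM in ADF, against 1.72, 0.857, 0.7199 and 1.71 CPM in Vehicle, and rose by 1.32 (adjusted p = 0.0387, lost in 6 of the 8 fits with 1 tumour left out, all but those without Vehicle replicates 1 or 4). Irs2 (0.35), Igf1r (0.23) and Mtor (0.33) did not pass (edgeR adjusted p = 0.368, 0.195 and 0.13). Igfbp3, an IGF binding protein, had 423, 394, 385 and 405 CPM in ADF, against 763, 533, 890.1 and 525 CPM in Vehicle. Its ranges did not overlap, but it missed the threshold (-0.75, SE 0.2296, edgeR adjusted p = 0.0526). Of 28 mTOR and AMPK genes 2 fell (0 without ADF replicates 2 or 4 or Vehicle replicates 2, 3 or 4, 1 without ADF replicate 3).

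Genes responsive to steroid hormones were lower in part. The glucocorticoid receptor gene Nr3c1 had 107, 132, 139 and 139 CPM in ADF, against 127, 132, 139 and 130.4 CPM in Vehicle. It did not pass (-0.03, SE 0.0956, edgeR adjusted p = 0.878). Of 24 genes that respond to androgen or glucocorticoid 6 fell and 0 rose, Ndrg1 and Acsl3 among them. Mt1, a metal-binding stress protein, had 81.7, 71.96, 80.1 and 78.7 CPM in ADF, against 126, 171, 178 and 142 CPM in Vehicle (log2 -0.98, SE 0.113, edgeR adjusted p = 0.000207). Lcn2, an iron-scavenging lipocalin, had 3.997, 4.26, 4.02 and 1.94 CPM in ADF, against 23.4, 23.04, 31.7 and 11.99 CPM in Vehicle, where replicate 4 was the lowest of each group (log2 -2.66, SE 0.4303, edgeR adjusted p = 0.00293). Fkbp5, a cochaperone of steroid receptors, had 343, 188, 208 and 228 CPM in ADF, against 306, 422, 443 and 429 CPM in Vehicle. ADF replicate 1 lay above Vehicle replicate 1, so the groups overlapped, and the call (log2 -0.73, SE 0.1995, edgeR adjusted p = 0.0346) was lost in 6 of the 8 fits with 1 tumour left out, all but those without ADF replicate 1 or Vehicle replicate 1. Myc, whose counts may include reads of the human transgene, had 153, 118, 96.8 and 101 CPM in ADF and 93.7, 87.9, 105 and 98.3 CPM in Vehicle and did not pass (0.29, SE 0.147, adjusted p = 0.22). Of 16 clock genes 2 fell. Nfil3, a repressor of clock output, had 16.8, 14.6, 13.5 and 13.4 CPM in ADF, against 29.4, 41.3, 33.2 and 30.4 CPM in Vehicle (log2 -1.203, SE 0.141, edgeR adjusted p = 0.000207), and Bhlhe40 fell by 0.71. The clock output gene Dbp was at -0.59 and did not pass (edgeR adjusted p = 0.0734). The time of day at collection was not used here.

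Sterol and fatty acid synthesis genes were lower in part. Of 27 cholesterol genes 9 fell and 0 rose, with a median of -0.51 (-0.20 with the covariate), but the number was 2 without Vehicle replicate 2, 3 without ADF replicate 4 and 5 without ADF replicate 3. Sc5d, a late desaturase of the pathway, had 21.7, 25.9, 27.3 and 20.4 CPM in ADF, against 34.8, 49.5, 35.6 and 40.9 CPM in Vehicle (log2 -0.75, SE 0.145, edgeR adjusted p = 0.00443). Idi1, the isoprenoid isomerase, fell by 1.41 (adjusted p = 0.0236). Vehicle replicate 2 was at 11.3 CPM and the other Vehicle tumours at 4.19 to 5.36 CPM, and the call was lost without ADF replicates 3 or 4 or Vehicle replicate 2. Fdft1, the squalene synthase, fell by 0.70 and lost its call without ADF replicate 4 or Vehicle replicate 2. The regulator Srebf2 did not pass (-0.68, edgeR adjusted p = 0.0597), and Vehicle replicate 2 was its highest tumour. In fatty acid synthesis 4 of 20 fell (2 without ADF replicates 1, 2 or 4 or Vehicle replicates 2 or 4). Acsl3, which activates fatty acids for lipid droplets, had 22.9, 21.4, 28.6 and 22.4 CPM in ADF, against 34.5, 52.2, 42.6 and 57.4 CPM in Vehicle (log2 -0.97, SE 0.155, edgeR adjusted p = 0.00134), and the desaturase Scd2 fell by 0.66 (SE 0.121, adjusted p = 0.00326). Fasn, the synthase itself, was at 0.23 and did not pass (edgeR adjusted p = 0.216).

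A part of the amino acid stress genes fell, where 4.96% of all genes did. Of 20 ATF4 and CHOP genes 3 fell (1 without ADF replicate 4) and the median became 0.01 with the covariate, against -0.26 without it. Atf5, a stress factor, had 125, 122, 94.9 and 81.4 CPM in ADF, against 159, 183, 180.2 and 163 CPM in Vehicle (log2 -0.69, SE 0.142, edgeR adjusted p = 0.00745). Atf4 itself (-0.38) and the asparagine synthetase Asns (-0.70) did not pass (edgeR adjusted p = 0.0712 and 0.101). Mthfd2, the mitochondrial folate enzyme, had 22.5, 23.7, 20.8 and 19.5 CPM in ADF, against 37.2, 40.98, 37.9 and 37.2 CPM in Vehicle, with the narrowest groups of this set (log2 -0.83, SE 0.123, edgeR adjusted p = 0.000768; -0.42 with the covariate). Phgdh, the first enzyme of serine synthesis, fell by 0.45 (adjusted p = 0.0355), a call lost in 6 of the 8 fits with 1 tumour left out, all but those without ADF replicate 1 or Vehicle replicate 1, and was at 0.01 with the covariate. Among 19 amino acid transporters 1 rose (0 without ADF replicate 4 or Vehicle replicates 2 or 3) and 2 fell (0 without ADF replicates 2, 3 or 4 or Vehicle replicate 2, 1 without Vehicle replicates 3 or 4). Slc7a2, a carrier of arginine, had 4.88, 4.205, 7.87 and 4.16 CPM in ADF, against 11.2, 101, 16.6 and 58.8 CPM in Vehicle. Vehicle replicates 2 and 4 held most of its signal, and the call (-3.16, SE 0.802, edgeR adjusted p = 0.0305) was lost in 6 of the 8 fits with 1 tumour left out, all but those without Vehicle replicates 1 or 3. Of 20 tRNA synthetases 2 fell and none did without ADF replicate 4.

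Many protein folding genes of the endoplasmic reticulum were lower. Of 29 tested 13 fell and 0 rose, with a median of -0.29 (-0.10 with the covariate), and the number was 6 without ADF replicate 4 or Vehicle replicate 2 and 8 without Vehicle replicate 3. Calr, the calcium-binding lectin chaperone whose promoter is shown above, had 369.8, 439.7, 385 and 359 CPM in ADF, against 565, 617, 582 and 503 CPM in Vehicle. Its groups did not overlap (log2 -0.55, SE 0.0996, edgeR adjusted p = 0.00315). Hsp90b1 had 307, 332, 388 and 364 CPM in ADF, against 462, 493, 498 and 456 CPM in Vehicle (log2 -0.46, SE 0.102, edgeR adjusted p = 0.0115). Pdia4, a disulfide isomerase, fell by 0.54 (SE 0.106, edgeR adjusted p = 0.00469), and Herpud1, of the degradation pathway, by 0.46 (SE 0.08298, adjusted p = 0.0031). Canx fell by 0.36 (lost without ADF replicates 2, 3 or 4 or Vehicle replicates 2 or 3; 0.00 with the covariate) and Pdia6 by 0.38 (lost in 6 of the 8 fits with 1 tumour left out, all but those without ADF replicate 2 or Vehicle replicate 4). Hspa5, the master chaperone, had 485, 475, 470.0 and 387 CPM in ADF, against 571, 563, 597 and 533 CPM in Vehicle and missed the threshold (-0.32, SE 0.09902, edgeR adjusted p = 0.0502).

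Of 19 cytosolic and mitochondrial heat shock genes 7 fell (2 without ADF replicate 4 or Vehicle replicate 3, 3 without ADF replicate 3, 4 without ADF replicates 1 or 2 or Vehicle replicate 2). Hspb1, a small chaperone of actin and of unfolded proteins, had 56.8, 55.2, 57.4 and 45.95 CPM in ADF, against 114, 125, 247 and 127 CPM in Vehicle. Vehicle replicate 3 stood far above the rest, and the other 3 Vehicle tumours were also above every ADF tumour (log2 -1.51, SE 0.224, edgeR adjusted p = 0.00163; -1.204 with the covariate). Dnajb1, which loads clients on Hsp70, fell by 0.42 (SE 0.0912, edgeR adjusted p = 0.00989). In the chaperonin 1 of 8 subunits fell, Cct7 (-0.38), and of 31 proteasome subunits 2 fell (0 without ADF replicates 3 or 4, 1 without Vehicle replicates 2 or 3). With the covariate the medians of these last lists were 0.17 and 0.09, against -0.16 and -0.16 without it.

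A part of the genes of the lysosomal pump and hydrolases fell. Of 15 subunits of the proton pump, which acidifies the lysosome, 8 fell (5 without ADF replicate 4 or Vehicle replicates 2 or 3), and of 29 hydrolases and membrane proteins 10 fell (2 without ADF replicate 4 or Vehicle replicate 3, 5 without ADF replicate 2 or Vehicle replicate 2, 6 without ADF replicate 3). Hexa, which degrades gangliosides, had 120.4, 125, 152 and 133 CPM in ADF, against 195, 199.6, 218 and 212 CPM in Vehicle. The gap between the groups was wider than either range (log2 -0.64, SE 0.0859, edgeR adjusted p = 0.000338; -0.71 with the covariate). Atp6v1a, the catalytic subunit of the pump, had 105, 109, 114 and 111 CPM in ADF, against 137, 158, 165 and 137 CPM in Vehicle (log2 -0.45, SE 0.0742, edgeR adjusted p = 0.00173). Atp6ap1, an accessory subunit, fell by 0.45 (SE 0.0896, edgeR adjusted p = 0.00511), and the protease gene Ctsz by 0.49 (SE 0.0922, adjusted p = 0.00392). Lamp1, a coat protein of the lysosome, fell by 0.42 (lost without ADF replicate 4 or Vehicle replicate 3), and the galactosidase Gla by 0.40 (lost without ADF replicates 2, 3 or 4 or Vehicle replicates 2 or 3). Tfeb, the factor that induces lysosomal genes, did not pass (-0.11, SE 0.107, edgeR adjusted p = 0.536). Core autophagy genes split: 4 of 28 fell (2 without ADF replicate 4 or Vehicle replicate 3) and 2 rose. The ones that fell included Gabarap (-0.42), which coats the autophagosome, and Atg12 (-0.44), which helps attach that coat. Those that rose were the starting kinases Ulk1 (0.34) and Ulk2 (0.24, lost in 7 of the 8 fits with 1 tumour left out, all but the one without ADF replicate 2). Ulk1 had 89.9, 82.6, 86.4 and 81.2 CPM in ADF, against 62.2, 71.6, 69.6 and 64.8 CPM in Vehicle, without overlap, but its call (edgeR adjusted p = 0.0325) was lost in each of the 8 fits with 1 tumour left out.

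**Figure D3:**
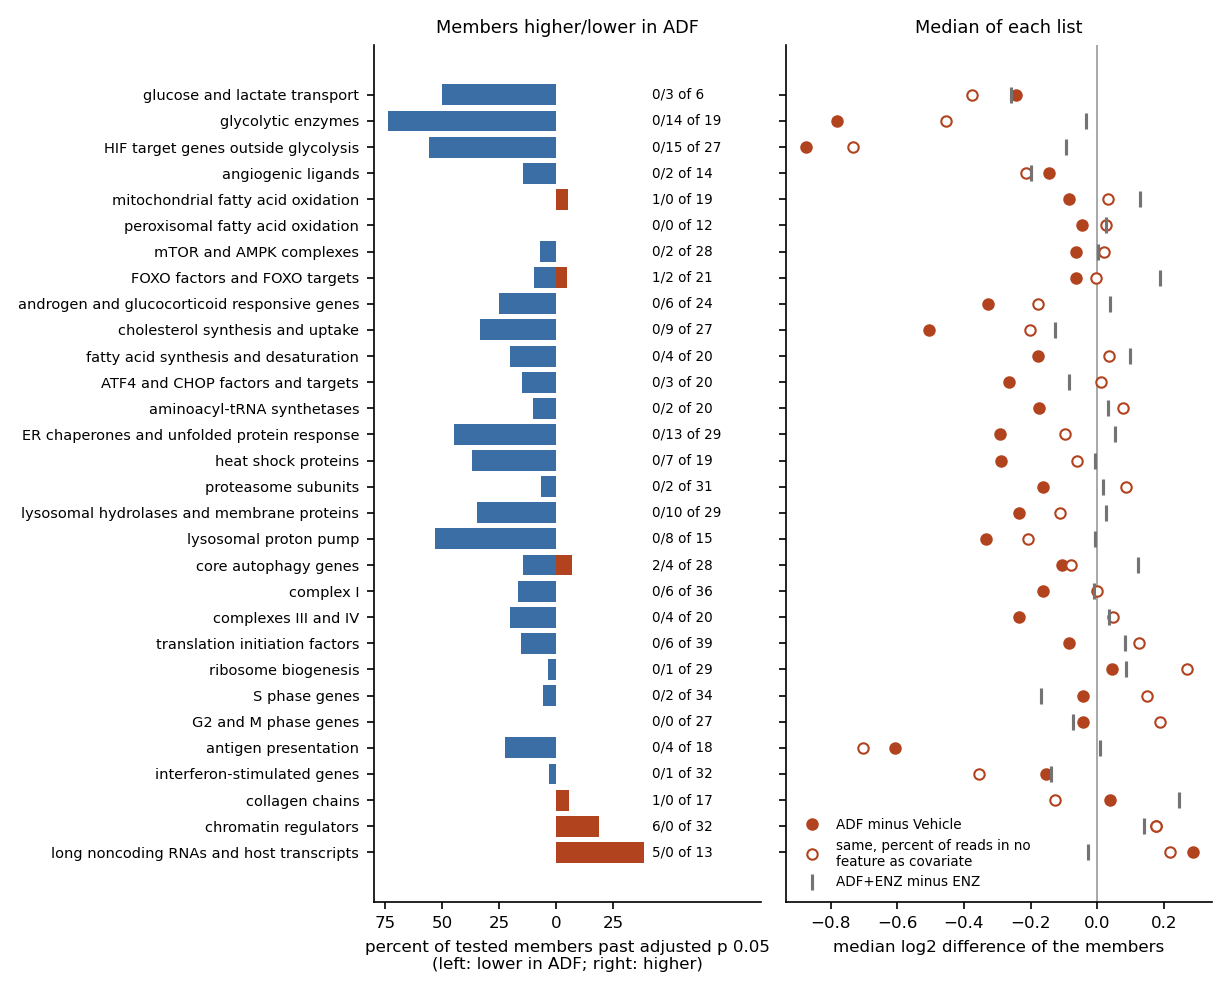
For each gene list (y axis), the percent of tested members that were lower (left bars) or higher (right bars) in ADF than in Vehicle at an edgeR adjusted p under 0.05, with the counts, and in the right panel the median log2 difference of the members without the covariate (filled), with the share of reads outside features as covariate (open) and for ADF+ENZ minus ENZ (ticks). The glycolytic enzymes lie at -0.78 without and -0.45 with the covariate, the HIF targets at -0.88 and -0.73, and the complex I subunits at -0.16 and 0.00.

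Nuclear genes of the respiratory chain showed small shifts. Over all complexes 12 of 71 fell and none rose: 6 of 36 in complex I (0 without ADF replicate 4 or Vehicle replicate 2, 1 without ADF replicate 3 or Vehicle replicate 3), 4 of 20 in complexes III and IV (2 without ADF replicates 3 or 4 or Vehicle replicate 2) and 2 of 15 in the ATP synthase (0 without ADF replicates 3 or 4 or Vehicle replicates 1, 2 or 3, 1 without ADF replicates 1 or 2). Uqcrc2, a core protein of complex III, had 47.6, 49.2, 44.1 and 40.6 CPM in ADF, against 55.3, 59.9, 63.3 and 57.2 CPM in Vehicle (log2 -0.38, SE 0.0777, edgeR adjusted p = 0.00704). Cox6b1, of complex IV, fell by 0.41 (SE 0.0859, edgeR adjusted p = 0.00724). With the covariate the list medians lay at 0.00, 0.05 and 0.01, against -0.16, -0.24 and -0.18 without it. None of the 13 mitochondrially encoded mRNAs passed. In the tricarboxylic acid cycle 2 of 20 enzymes fell in edgeR (0 without ADF replicate 4 or Vehicle replicates 2 or 3, 1 without ADF replicate 3), 8 in DESeq2 and 7 in limma-voom. Of 39 initiation factors 6 fell (1 without ADF replicates 3 or 4, 2 without Vehicle replicates 2 or 3), Eif1ax, a scanning factor, with 132, 132, 130.0 and 137 CPM in ADF, against 159, 193, 174 and 156 CPM in Vehicle (log2 -0.36, SE 0.0751, edgeR adjusted p = 0.00724). The cap-binding factor Eif4e (0.04) and its inhibitor Eif4ebp1 (0.02) were not called (edgeR adjusted p = 0.821 and 0.977). Of 29 ribosome biogenesis genes 1 fell. RNA counts do not measure translation.

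Proliferation genes gave few calls, where 4.05% of all genes rose and 4.96% fell. Of 34 S phase genes 2 fell (0 without ADF replicate 4 or Vehicle replicate 2, 1 without ADF replicates 1 or 3 or Vehicle replicate 1), Cdc45 (-0.53, lost without ADF replicate 4 or Vehicle replicate 2), which starts the replication fork, and Rrm2 (-0.61, lost without ADF replicates 1, 3 or 4 or Vehicle replicates 1 or 2), which makes deoxynucleotides. None of 27 G2 and M phase genes passed. Mki67, the proliferation antigen, had 283, 327, 359 and 309 CPM in ADF, against 307, 336, 209.8 and 277 CPM in Vehicle, with overlapping ranges (0.18, SE 0.143, edgeR adjusted p = 0.453). Ccnd1 did not pass (-0.11, adjusted p = 0.714). Ccnd2, another D cyclin, had 37.5, 104, 49.8 and 55.99 CPM in ADF, against 92.5, 234, 170.4 and 157 CPM in Vehicle. ADF replicate 2 lay above Vehicle replicate 1, and the call (-1.398, SE 0.3701, edgeR adjusted p = 0.035) was lost in 6 of the 8 fits with 1 tumour left out, all but those without ADF replicate 2 or Vehicle replicate 1. Of 15 p53 targets 1 fell (0 without ADF replicate 4), and of 16 NRF2 targets 3 fell (1 without ADF replicate 4 or Vehicle replicate 3), among them Gclc (-0.62), the rate-limiting enzyme of glutathione synthesis, and Fth1 (-0.68, lost without ADF replicate 4 or Vehicle replicate 3), the ferritin heavy chain.

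Immune and matrix genes changed in a few members. Of 18 antigen presentation genes 4 fell and the median was -0.61 (-0.70 with the covariate), but the number was 0 without ADF replicates 1 or 4 or Vehicle replicate 2 and 1 without ADF replicates 2 or 3 or Vehicle replicates 3 or 4. B2m, the light chain of class I, had 347, 417, 469 and 428 CPM in ADF, against 501, 773, 549 and 665 CPM in Vehicle, without overlap (log2 -0.58, SE 0.146, edgeR adjusted p = 0.0209; lost without ADF replicates 1 or 4 or Vehicle replicate 2). Of 32 interferon-stimulated genes 1 fell (2 without ADF replicate 2 or Vehicle replicate 1), the exonuclease Isg20 with 4.397, 4.97, 6.69 and 5.09 CPM in ADF, against 9.45, 13.3, 12.2 and 11.8 CPM in Vehicle (log2 -1.14, SE 0.179, edgeR adjusted p = 0.00108). None of 26 chemokine ligands and receptors passed in edgeR, 3 in DESeq2 and 1 in limma-voom. Of 17 collagen chains 1 rose, the anchoring fibril gene Col7a1, with 166, 199, 241 and 206 CPM in ADF, against 141, 132, 114 and 160.5 CPM in Vehicle (log2 0.57, SE 0.108, edgeR adjusted p = 0.0039); 3 chains rose without ADF replicate 1. Col1a1 did not pass (0.34, adjusted p = 0.353). Of 27 matrix genes 4 fell (0 without ADF replicate 4, 1 without Vehicle replicate 3, 2 without ADF replicates 1 or 3 or Vehicle replicates 1 or 4). Lox, the collagen cross-linker that HIF induces, had 202, 369.7, 326 and 275 CPM in ADF, against 464, 813, 529.9 and 405 CPM in Vehicle (log2 -0.92, SE 0.204, edgeR adjusted p = 0.0145), a call lost without ADF replicate 4 (log2 -1.05 to -0.67 over the 8 fits). Fn1, fibronectin, had 5128, 9727, 9040.5 and 8604 CPM in ADF, against 9912, 14837, 10797 and 9283 CPM in Vehicle and did not pass (-0.46, edgeR adjusted p = 0.112).

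The summed levels of cell type markers overlapped between the groups. Macrophage markers were at 1332 to 1625 CPM in ADF and 1342 to 1839 CPM in Vehicle, fibroblast markers at 8864 to 12517 CPM in ADF and 10931 to 12737 CPM in Vehicle, luminal markers at 879 to 1012 CPM in ADF and 911 to 1181 CPM in Vehicle, and T and NK cell markers at 4.88 to 15.1 CPM in ADF and 6.95 to 29.4 CPM in Vehicle. None of 16 lists passed (exact two-sided permutation test, smallest adjusted p = 0.813). Single markers gave few calls, where 4.96% of all genes fell. In the endothelial list 1 of 10 tested fell, Flt1. In the macrophage list 1 of 12 fell, Cd68 (-0.44, lost without ADF replicates 1, 2 or 4 or Vehicle replicates 2 or 3). In the fibroblast list 1 of 9 fell, Dcn (-0.43, lost in 7 of the 8 fits with 1 tumour left out, all but the one without Vehicle replicate 2). In the luminal list 1 of 7 fell, the keratin Krt19 (-2.14, lost without ADF replicates 1, 3 or 4 or Vehicle replicates 1 or 4). No marker of the other lists passed. Krt14, a basal keratin, had 0 counts in all 8 tumours. In tumour RNA, fewer cells of a type and less RNA per cell cannot be told apart.

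Genes that rose by the largest factors were low in level. Where the groups lay apart and the mean over both reached 1 CPM, Clca3a1, of the chloride channel regulator family, led with 3.92, 2.37, 2.68 and 1.72 CPM in ADF, against 0.238, 0.343, 0.654 and 0.884 CPM in Vehicle (log2 2.31, SE 0.475, edgeR adjusted p = 0.00744). Nek10, a kinase of cilia, had 16.9, 7.995, 5.35 and 8.46 CPM in ADF, against 2.496, 1.71, 1.96 and 3.37 CPM in Vehicle (log2 2.01, SE 0.2998, edgeR adjusted p = 0.001). Its ADF tumours spread more than 3-fold, with replicate 1 the highest. The plasma membrane calcium pump gene Atp2b3 had 6.56, 5.39, 6.38 and 5.88 CPM in ADF, against 1.37, 1.77, 1.57 and 2.38 CPM in Vehicle, in tight groups (log2 1.76, SE 0.286, edgeR adjusted p = 0.00142). Psapl1 (2.19), the formyl peptide receptor gene Fpr1 (1.89), Syt15 (1.798), Atp1b4 (1.78), Ppp1r9a (1.69), Rflna (1.602), Tmem88b (1.51), Nat8l (1.46), which makes N-acetylaspartate, and the muscle stress gene Abra (1.45) completed the 12 with the largest rises. Of these, Atp1b4 lost its call without ADF replicate 4 or Vehicle replicates 2 or 3, Nat8l without ADF replicates 3 or 4 or Vehicle replicate 3, Abra without Vehicle replicates 2 or 3 and Tmem88b without ADF replicate 4.

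At the other end stood Slc7a2, Lcn2, Aldoc, Pgf and Ppp1r3c, described above, and Megf10 (-2.903), Sectm1b (-2.26), Mgarp (-2.03), Serpina3m (-2.02), Prr15 (-1.89), the epithelial factor gene Ehf (-1.85) and Minar1 (-1.79). The call of Sectm1b was lost without ADF replicate 4, that of Ehf without ADF replicates 2, 3 or 4 or Vehicle replicates 2 or 4, that of Minar1 without ADF replicates 2, 3 or 4 or Vehicle replicates 2 or 3 and that of Prr15 in 6 of the 8 fits with 1 tumour left out, all but those without ADF replicate 2 or Vehicle replicate 1. Serpina3m has several near-copies beside it in the genome, so its counts are uncertain. It had 13.5, 6.396, 10.4 and 17.3 CPM in ADF, against 41.4, 36.9, 76.2 and 38.1 CPM in Vehicle (edgeR adjusted p = 0.0238), and lost its call without ADF replicates 2 or 3 or Vehicle replicate 3. Mgarp, a mitochondrial protein that HIF induces, had 0.799, 1.78, 2.44 and 1.22 CPM in ADF, against 7.96, 3.66, 11.6 and 2.597 CPM in Vehicle (adjusted p = 0.0144), lost without ADF replicate 4. Megf10, an engulfment receptor gene, had 1.199, 0.592, 1.102 and 0.502 CPM in ADF, against 3.39, 5.43, 11.9 and 4.47 CPM in Vehicle, where replicate 3 was more than 2-fold above the rest (adjusted p = 0.0306, lost in 6 of the 8 fits with 1 tumour left out, all but those without Vehicle replicates 1 or 4).

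A part of the large chromatin regulators rose. Of 32 tested 6 rose and 0 fell, with a median of 0.18 (0.18 with the covariate) and 3 without ADF replicates 3 or 4. Kmt2d, a histone methyltransferase of enhancers, had 829, 891, 851 and 905 CPM in ADF, against 537, 514, 514 and 629.6 CPM in Vehicle. All ADF tumours lay far above all Vehicle tumours (log2 0.66, SE 0.0871, edgeR adjusted p = 0.00028; 0.49 with the covariate). Its relative Kmt2a rose by 0.52 (SE 0.0974, edgeR adjusted p = 0.00359), the remodeller gene Arid1a by 0.43 (SE 0.08403, adjusted p = 0.00465) and the demethylase gene Tet1 by 0.89 (adjusted p = 0.0413, lost without ADF replicates 1, 3 or 4 or Vehicle replicates 2 or 4). Of 13 long noncoding RNAs and host transcripts 5 rose (2 without ADF replicates 1, 3 or 4 or Vehicle replicate 3, 3 without Vehicle replicates 1 or 2). Pvt1, the neighbour of Myc, had 24.2, 29.1, 24.5 and 26.95 CPM in ADF, against 16.05, 16.6, 18.8 and 17.02 CPM in Vehicle (log2 0.62, SE 0.112, edgeR adjusted p = 0.0031; 0.74 with the covariate). Snhg14, a host of small nucleolar RNAs, rose by 1.04 (SE 0.2397, adjusted p = 0.0143). Neat1, the scaffold of paraspeckles, had 2698, 1731, 2192 and 2366 CPM in ADF, against 1806, 703, 1262 and 1154 CPM in Vehicle, which overlapped, and its call (0.87, edgeR adjusted p = 0.0268) was lost without ADF replicates 1, 3 or 4 or Vehicle replicates 3 or 4. Malat1, another nuclear RNA, did not pass (-0.20, adjusted p = 0.505). Among splicing factors Hnrnpc, which binds nascent RNA, fell (log2 -0.52, SE 0.0963, edgeR adjusted p = 0.0032), and the splicing kinase Clk1 did not pass (0.18, adjusted p = 0.286).

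The direction of change differed with gene class and gene length. Of 13766 protein-coding genes 397 (2.88%) rose and 843 (6.12%) fell. When protein-coding genes were scaled and tested alone, 489 of 13748 rose and 630 fell. The TEC class, provisional models that await experimental support, had 155 of 1199 (12.9%) higher and 3 lower, antisense genes had 77 of 921 (8.36%) higher and 1 lower, lincRNAs had 39 of 574 (6.79%) higher and 8 lower, and sense intronic genes had 17 of 167 (10.2%) higher and 1 lower. The median log2 change was 0.42 for the TEC class, 0.35 for antisense genes, 0.24 for lincRNAs and 0.40 for sense intronic genes. With the covariate these medians were -0.11, -0.01, 0.00 and -0.19. Small nucleolar RNAs went the other way, with 2 of 78 higher and 13 (16.7%) lower, although their median was -0.07. Among protein-coding genes the share that rose was 1.27% in the fifth with the least exon sequence and 6.54% in that with the most, and the share that fell was 7.88% and 2.80%. Genes that rose had a median of 6856 bp of exon, genes that fell 3680 bp and all tested 4410 bp. Whether strand was used in counting is not stated in the labels or notes, and counts of antisense and overlapping genes are uncertain for that reason. The share of reads outside features moved with these classes, and its part in each was measured only through the covariate fit.

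**Figure D4:**
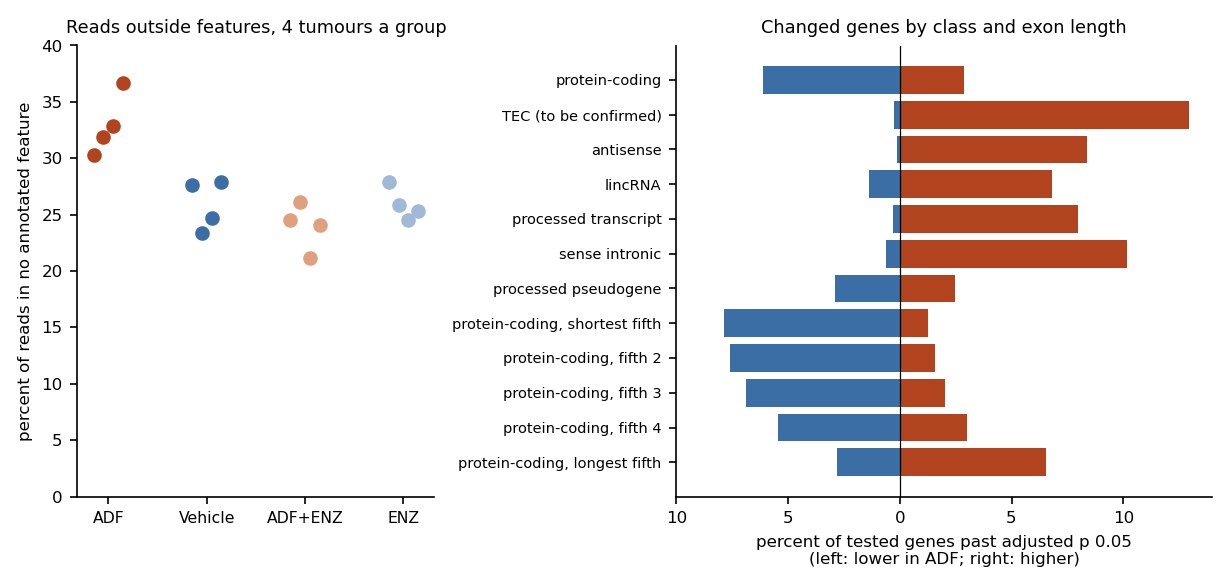
Left, percent of reads in no annotated feature (y axis) in each tumour of the 4 groups, with the ADF tumours at 30.3 to 36.7% and all others at 27.9% or less. Right, percent of tested genes that were lower (left bars) or higher (right bars) in ADF than in Vehicle at an edgeR adjusted p under 0.05, by gene class and for 5 equal groups of protein-coding genes by exon length, where 12.9% of the TEC class rose and, in the fifth with the most exon sequence, 6.54% rose and 2.80% fell.

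The fasting effect without drug was then set against the fasting effect in enzalutamide-treated tumours, ADF+ENZ over ENZ, which share no library with the first comparison. That comparison had 206 changed genes (1.09%). Of these, 37 were also among the 1707 (2.17% of the 1707 and 18.0% of the 206), 30 of them in the same direction. The difference of the log2 effects, without drug minus with drug, passed for 587 genes (3.1%), with 413 (2.18%) lower and 174 (0.918%) higher without drug. With 1 library left out the count was 148 to 908, with 908 without ADF+ENZ replicate 2, 148 to 309 without ADF replicates 2, 3 or 4, Vehicle replicates 2 or 3 or ADF+ENZ replicates 1 or 3, and 325 to 391 without ENZ replicates 2, 3 or 4. None passed in edgeR with the covariate, where 1014 had an unadjusted p under 0.05, and 1363 passed in DESeq2 without it. Among the 1707 genes 390 (22.8%) also differed between the fasting effects, which was 66.4% of the genes that differed. The difference contains the same ADF against Vehicle change that selected the 1707, so a large overlap could be foreseen.

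Glycolytic genes were among those whose effects differed. Of 19 enzymes 11 differed (2 to 7 without any 1 of ADF replicates 1, 3 or 4, Vehicle replicates 2 or 3, ADF+ENZ replicates 1 or 3 or any ENZ replicate), and the median effect was -0.78 without drug and -0.03 with it. Slc2a1 was at -1.46 without drug and -0.04 with it, a difference of -1.42 (SE 0.336, edgeR adjusted p = 0.0389) whose call held only without ADF replicate 3, Vehicle replicates 1 or 4, ADF+ENZ replicates 2 or 4 or ENZ replicate 2 in the 16 fits with 1 library left out. Tpi1 differed by -1.05 (SE 0.189, adjusted p = 0.00893), Pgam1 by -1.08 (adjusted p = 0.0266, lost without ADF replicate 4, Vehicle replicate 2 or ADF+ENZ replicates 1 or 3) and Ldha by -0.77 (adjusted p = 0.0256, lost without ADF replicate 4, Vehicle replicate 3 or ADF+ENZ replicate 3). HIF targets had a median of -0.88 without drug and -0.09 with it, and 9 of 27 differed (3 to 5 without ADF replicate 4, Vehicle replicates 2 or 3, ADF+ENZ replicates 1 or 3 or ENZ replicates 3 or 4), such as P4ha2 (-1.04, SE 0.171, edgeR adjusted p = 0.00645). Vegfa was at -0.89 without drug and -0.06 with it (difference -0.83, SE 0.1599, adjusted p = 0.0128), and Pgf at -1.83 and -0.12 (difference -1.71, adjusted p = 0.0315, lost without ADF replicates 2 or 4, Vehicle replicates 2 or 3, ADF+ENZ replicates 1 or 3 or ENZ replicates 3 or 4). The differences of Tpi1, P4ha2 and Vegfa passed in all 16 fits with 1 library left out.

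The differences of smallest p included genes whose effects had opposite signs. Fkbp5 fell by 0.73 without drug and rose by 1.06 with it (edgeR adjusted p = 0.0346 and 0.024; difference -1.79, SE 0.283, edgeR adjusted p = 0.00787). Ly6a, a surface antigen gene, had 248, 255, 312 and 294 CPM in ADF, against 409, 476, 529 and 477 CPM in Vehicle (log2 -0.77, SE 0.0971, edgeR adjusted p = 0.000219), and was at 0.48 with drug (adjusted p = 0.024), a difference of -1.25 (SE 0.137, adjusted p = 0.000403). Fn1 was at -0.46 without drug, which did not pass, and rose by 0.89 with it (adjusted p = 0.025), a difference of -1.36 (SE 0.259, edgeR adjusted p = 0.0126). Nfil3 (-1.65, adjusted p = 0.000837), Mt1 (-1.18, adjusted p = 0.00223), Suox (-1.35, adjusted p = 0.000837), Arl4a (-0.996, adjusted p = 0.00471) and Ly6c1 (-1.07, adjusted p = 0.00471) were with Ly6a the named genes of smallest edgeR p for the difference. Of the genes that passed with the covariate, Adgrg2 differed by -2.08 (SE 0.299, edgeR adjusted p = 0.00589) and Nr1h4 by -2.02 (SE 0.3895, adjusted p = 0.0128). Each difference given in this paragraph passed in all 16 fits with 1 library left out.

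A few changes were called with and without drug. Ucp2 rose by 0.85 without drug and by 0.55 with it (edgeR adjusted p = 8.11e-05 and 0.00698), and the difference of 0.30 did not pass (SE 0.1202, adjusted p = 0.166). Cpt1a rose by 0.49 and 0.69 (adjusted p = 0.0165 and 0.0107; difference -0.20, adjusted p = 0.521). Oxct1 fell in both (-0.73 and -0.53, edgeR adjusted p = 0.000937 and 0.029; difference -0.20, adjusted p = 0.477), and so did Hexa (-0.64 and -0.52, adjusted p = 0.000338 and 0.00872; difference -0.11, adjusted p = 0.623) and Taldo1 (-0.34 and -0.49, edgeR adjusted p = 0.0168 and 0.00872; difference 0.15, adjusted p = 0.477). A difference that misses the threshold does not show that the effects were equal.

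**Figure D5:**
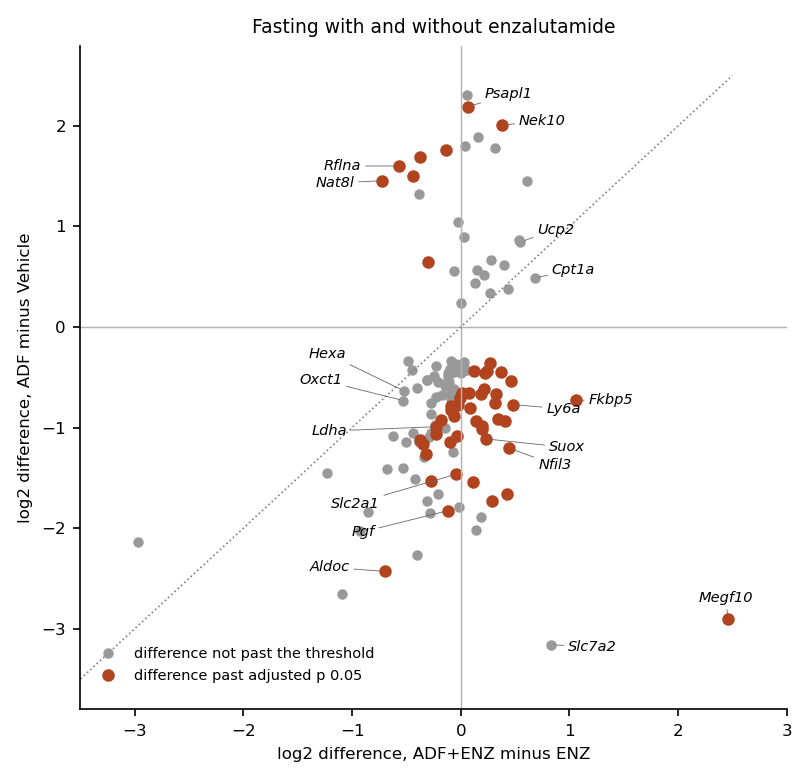
Log2 fasting effect without drug (ADF minus Vehicle, y axis) against that with drug (ADF+ENZ minus ENZ, x axis), 1 point for each gene that the text names as changed, in red where the difference of the effects passed an edgeR adjusted p under 0.05, with equal effects on the dotted line. Slc2a1 (-1.46 without and -0.04 with drug) lies near 0 on the drug axis, and Ucp2 (0.85 and 0.55) and Oxct1 (-0.73 and -0.53) lie on the same side of 0 on both axes.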

How the data were processed

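Total RNA of 16 tumours was sequenced in paired-end mode, per the labels' protocols. The table of counts that the authors deposited holds whole-number reads per Ensembl gene, not normalized. Trim Galore, HISAT2, featureCounts and DESeq2 are named, without versions or settings, in the submitters' processing notes, which also name the builds mm39 and GRCh38 without their roles. The table has 55414 gene IDs and 5 entries that are not genes (no feature, ambiguous, several places, not aligned and low quality). These entries stayed out of library sizes and tests, and their shares of all reads were compared by an exact permutation test.

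Groups were taken from the treatment label. All 16 libraries entered 1 edgeR (4.0.16) quasi-likelihood fit with robust dispersion and TMM scaling, after filterByExpr with a minimum count of 10 and a minimum total of 15, and p-values were adjusted by the Benjamini-Hochberg method over all 18946 genes. CPM are counts per 1000000 counts of the tested genes, after the TMM scaling of each library's total. Where a symbol had several gene IDs (18 symbols), the ID with the most counts stood for it. Alternatives were DESeq2 (1.42.0), limma-voom (limma 3.58.1), other filters and scalings, the percent of reads outside features as a covariate, and each library left out in turn. R 4.3.3 and Python 3.11.15 were used. The edgeR step was tested on simulated counts.

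Named genes are the 12 largest rises and falls that passed without overlap at a mean of at least 1 CPM, up to 6 members of smallest p in each of 55 pathway lists, a set of pathway genes, the 6 genes of smallest p for the difference of fasting effects, and list members named where a pathway is described in order. The 6 genes that passed with the covariate were added after their values were seen. Some genes that this rule names are not reported here. Members, gene lists and tests were chosen with earlier results of these data known. Replicates of a group differed by more than counting noise (chi-square per degree of freedom 5.79 to 24.8 among ADF and 13.4 to 38.6 among Vehicle libraries). With 4 libraries a group and 12289755 to 18313259 counts each, the spread between tumours and not depth sets the precision of all but the lowest genes.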

Additional observations from a re-analysis of the deposited data

Results flagged for a closer look

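In 19 of 354 groups of 4 libraries, over the 173 genes named here and the library shares, 1 tumour lay far from the other 3. Its gap to the nearest of the others was past Dixon's 95% critical value as a share of the group's range, which about 1 in 20 groups meet by chance. Among ADF tumours a far value above the rest was held by replicate 4 for Adgrg2 (48.3 CPM), replicate 1 for Gclc (60.4 CPM), replicate 1 for Irs4 (4.397 CPM), replicate 3 for Ndufa4l2 (10.9 CPM), replicate 1 for Phgdh (183 CPM) and replicate 3 for Vegfa (184 CPM). Among ADF tumours a far value below the rest was held by replicate 2 for Clk1 (119 CPM), replicate 4 for Hspa5 (387 CPM), replicate 4 for Lcn2 (1.94 CPM) and replicate 3 for Ppp1r9a (3.46 CPM). Among Vehicle tumours a far value above the rest was held by replicate 3 for Cct7 (209 CPM), replicate 2 for Fdft1 (26.9 CPM), replicate 4 for Herpud1 (79.6 CPM), replicate 3 for Hspb1 (247 CPM), replicate 2 for Idi1 (11.3 CPM) and replicate 3 for Serpina3m (76.2 CPM). Among Vehicle tumours a far value below the rest was held by replicate 1 for Fkbp5 (306 CPM), replicate 1 for Hspe1 (52.9 CPM) and replicate 2 for Malat1 (9627 CPM).

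The fasting effect without drug differed from that in enzalutamide-treated tumours for 52 named genes (edgeR adjusted p of the difference under 0.05). Of these, 22 kept their call whichever of the 16 libraries was dropped and 0 with the share of reads outside features as a covariate. Many named genes were chosen for their ADF against Vehicle change and 6 for this difference. A share above the 3.1% of all genes could therefore be foreseen. Among genes of glucose uptake and glycolysis the log2 difference, without drug minus with drug, was -1.42 for Slc2a1, -0.67 for Hk1, -0.69 for Hk2, -0.70 for Gpi1, -0.84 for Aldoa, -1.73 for Aldoc, -1.05 for Tpi1, -0.89 for Gapdh, -0.74 for Pgk1, -1.08 for Pgam1, -0.75 for Pkm and -0.77 for Ldha. For HIF targets and ligands the log2 difference, without drug minus with drug, was -0.94 for P4ha1, -1.04 for P4ha2, -1.35 for Plod2, -1.26 for Lox, -1.25 for Ero1l, -0.81 for Higd1a, -0.74 for Fam162a, -1.204 for Ndrg1, -0.83 for Vegfa and -1.71 for Pgf. For nutrient, steroid and clock genes the log2 difference, without drug minus with drug, was -0.85 for Ccng2, -0.997 for Pik3ip1, -1.79 for Fkbp5, -1.18 for Mt1 and -1.65 for Nfil3. In lipid, amino acid and redox metabolism the log2 difference, without drug minus with drug, was -0.73 for Scd2, -0.74 for Mthfd2, -0.83 for Phgdh, -1.35 for Suox, -0.83 for Gclc and 0.94 for Slc7a3. In protein folding and autophagy the log2 difference, without drug minus with drug, was -0.63 for Canx, -0.68 for Herpud1 and -0.55 for Atg12. Among surface, matrix and receptor genes the log2 difference, without drug minus with drug, was -1.36 for Fn1, -0.68 for Cd68, -1.25 for Ly6a, -1.07 for Ly6c1, -1.65 for Il18r1, -2.08 for Adgrg2, -2.02 for Nr1h4, -5.36 for Megf10 and -0.996 for Arl4a. Among genes with the largest rises the log2 difference, without drug minus with drug, was 2.12 for Psapl1, 1.63 for Nek10, 1.898 for Atp2b3, 2.07 for Ppp1r9a, 2.17 for Rflna, 1.95 for Tmem88b and 2.18 for Nat8l. A negative value means that fasting went with a lower level, or a smaller rise, without drug than with it. The smallest edgeR adjusted p of these differences was that of Ly6a (0.000403). Genes of glycolysis and of the HIF list share libraries and controls, so their differences are not separate observations.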

How the results depend on the processing

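The number of calls depended on the setting, and the covariate also changed directions: 52 of the 1707 changed genes had the other sign with it, and medians crossed 0 for the proteasome (0.09 with and -0.16 without), tRNA synthetases (0.08 and -0.17), the chaperonin (0.17 and -0.16), initiation factors (0.12 and -0.09) and the TEC class (-0.11 and 0.42). Of the changed genes, ADF against Vehicle, 1119 passed with protein-coding genes alone and 6 with the share of reads outside features as a covariate, against 1707, 610 to 1862 with 1 ADF or Vehicle tumour left out and 1506 to 1927 with 1 ADF+ENZ or ENZ tumour left out. DESeq2 gave 2358, limma-voom 2341, DESeq2 size factors 1789, no filter 1520, a filter of 1 CPM in 4 libraries 1696 and the 8 ADF and Vehicle libraries alone 1409. The split of higher and lower calls was 960 and 1398 in DESeq2, 1092 and 1249 in limma-voom and 562 and 958 without a filter, against 767 and 940. With protein-coding genes alone it was 489 and 630. For the difference of the fasting effects 1363 passed in DESeq2, 350 with protein-coding genes alone and 0 with the covariate in edgeR, against 587, and 148 to 908 with 1 library left out. The median log2 change of all genes stayed within -0.0029 and 0.016 under all settings run. The difference in reads outside features was 7.04 percentage points, 5.78 to 7.92 with 1 tumour left out, and that in reads aligned to several places -2.75, -2.86 to -2.55 with 1 left out, where 3 against 4 cannot reach an exact p under 0.0571. By list, DESeq2 and limma-voom called 16 and 11 cholesterol genes lower (9 in edgeR), 7 and 7 of complexes III and IV (4), 4 and 4 of the ATP synthase (2), 5 and 5 ATF4 and CHOP genes (3) and 4 and 5 tRNA synthetases (2). With protein-coding genes alone 2 of complex I (6), 3 initiation factors (6), 4 heat shock genes (7), 6 lysosomal hydrolases (10) and 1 antigen presentation gene (4) were called lower. Among the named genes that were called none changed sign except with the covariate, for Phgdh (0.013), Eif1 (0.0026), Canx (0.0038) and Ftx (-0.022), none of which passed there. The covariate fit estimates the fasting effect from what the share leaves, and its SE is larger. No paired analysis was possible because the labels give no shared replicate numbers or mouse pairs across the groups. Genes at a few CPM, such as Clca3a1, Aldoc and Megf10, are limited by depth.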

Other observations

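Members of the lists not described so far moved in both directions. Slc7a3, a carrier of cationic amino acids, had 6.72, 7.34, 5.43 and 8.03 CPM in ADF, against 4.04, 4.001, 4.39 and 5.19 CPM in Vehicle (log2 0.64, SE 0.172, edgeR adjusted p = 0.0269; call lost without ADF replicates 2 or 4 or Vehicle replicates 1, 2 or 3). Vldlr, a lipoprotein receptor gene that ATF4 and HIF induce, had 0.3997, 1.599, 1.26 and 0.645 CPM in ADF, against 3.09, 2.11, 3.67 and 2.099 CPM in Vehicle (log2 -1.45, SE 0.342, edgeR adjusted p = 0.0152; call lost without ADF replicate 4 or Vehicle replicate 3). Cebpd, a stress factor gene that glucocorticoids induce, had 21.9, 19.5, 19.8 and 16.1 CPM in ADF, against 35.96, 39.2, 45.8 and 34.3 CPM in Vehicle (log2 -1.01, SE 0.262, edgeR adjusted p = 0.0292; call lost without ADF replicates 2, 3 or 4 or Vehicle replicates 2 or 3). In the promoters of heat shock genes GAA, TTC and GAA spaced by 2 bases, a form of the heat shock element, was found on either strand in 2 of 13 (15.4%), against 51 of 11628 (0.439%) of all genes tested. The 2 are Hspd1 and Hspe1, whose windows overlap between the genes, so 1 stretch of DNA is counted for both. A share above that of all genes could be foreseen from the choice of the list. Hspe1 fell by 0.34 (SE 0.0975, edgeR adjusted p = 0.0367; call lost in 7 of the 8 fits with 1 tumour left out, all but the one without Vehicle replicate 1), and Hspd1 was at -0.25 (adjusted p = 0.123). Of 28 promoter windows whose bases after the start were compared with RefSeq transcripts, 25 were found on the sense strand.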
